A study of Homo sapiens with 12 samples.

Results

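The genes described here are 10 markers and regulators of epithelial-mesenchymal transition (EMT): the transcription factors SNAI1, SNAI2, TWIST1, ZEB1 and ZEB2, the cadherins CDH1, CDH2 and CDH3, the intermediate filament gene VIM and the matrix gene FN1. They were chosen by gene symbol and are 10 of the 60099 genes in the expression table. RNA depleted of ribosomal RNA was sequenced from Cal27 and HN30 cells, established head and neck squamous cell carcinoma (HNSCC) lines, kept without IFNα or treated with 20 or 200 ng/ml IFNα for 24 h. The 12 samples carried the letters A to F with 2 replicates each, where A and D were controls, B and E received the low dose (20 ng/ml) and C and F the high dose (200 ng/ml). The letters were read as 2 line sets, A-C and D-F, because each holds every dose once. The labels do not say which set is Cal27 and which is HN30, so the sets are named by their letters. Pearson correlations of log2 library-scaled counts between samples were 0.944 to 0.979 within the sets (30 pairs) and 0.722 to 0.758 between them (36 pairs).

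EMT is a program in which epithelial cells loosen their contacts and gain motility. E-cadherin, encoded by CDH1, joins epithelial cells to each other, and the SNAI, ZEB and TWIST factors repress it directly or indirectly, in the case of SNAI and ZEB proteins by binding E-box sequences. N-cadherin (CDH2), vimentin (VIM) and fibronectin (FN1) are commonly raised in mesenchymal cells, while P-cadherin (CDH3) is typical of basal and squamous epithelium, and tumour cells can carry epithelial and mesenchymal genes side by side.

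Promoter sequence is shown for VIM and ZEB1, because these genes had their higher level in opposite line sets and could be read from the RefSeq table (GRCh38.p14). The 250 bases before the first listed start site are given 5′ to 3′ on the plus strand, at chr10:17227991-17228240 for VIM and chr10:31318167-31318416 for ZEB1, with any CACCTG E-box on either strand in capitals.
VIM: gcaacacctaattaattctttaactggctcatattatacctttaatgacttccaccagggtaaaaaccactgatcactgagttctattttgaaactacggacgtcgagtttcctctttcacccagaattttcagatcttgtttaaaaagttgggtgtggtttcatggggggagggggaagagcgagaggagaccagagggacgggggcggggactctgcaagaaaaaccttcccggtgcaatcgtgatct
ZEB1: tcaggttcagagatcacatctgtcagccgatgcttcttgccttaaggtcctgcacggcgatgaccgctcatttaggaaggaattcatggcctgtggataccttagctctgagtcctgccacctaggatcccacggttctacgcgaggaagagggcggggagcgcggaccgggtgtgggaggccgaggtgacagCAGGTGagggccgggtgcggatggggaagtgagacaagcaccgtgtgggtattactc
The ZEB1 stretch holds 1 E-box, read on the minus strand as CACCTG and beginning 57 bases before the start site, and the VIM stretch holds none. The table held 12 windows of 300 bases (250 before and 50 after a start site) for 5 of the 10 genes, namely ZEB1, ZEB2, CDH2, VIM and FN1. Among these windows, E-boxes were found at ZEB1 only, in 2 of its 7 windows and 3 times in one of them. An interferon element core, read as GAAA, any 2 bases and GAAA, was found once at ZEB2 and once at ZEB1, and a STAT element core, TTCNNNGAA, was found in none. Searched on both strands in the same way, 20.6% of 35116 promoter windows held the E-box, 3.57% the interferon element and 7.66% the STAT element. These matches describe the letters of the windows and are not evidence of binding.

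Depth and the general state of the samples were as follows. The total estimated count was 10517448 to 16056734 per sample, with 12670755 to 16056734 in the controls and 10517448 to 11854183 at 200 ng/ml, so that the controls were sequenced more deeply. All 12 interferon check genes, such as IFIT1 and ISG15, rose at least 2-fold at both doses, and their median on the log2 scale was a rise of 4.10 at the high dose and 3.87 at the low dose. The 9 squamous epithelial markers summed to 2559 to 4128 TPM (a level scaled for transcript length and depth), and all were above 1 TPM except KRT14, a basal keratin, which was 41.9 to 49.2 TPM in A-C and 0 to 0.254 TPM in D-F. Among 7 fibroblast markers only COL1A1 and PDGFRB exceeded 1 TPM in any sample, and the 7 summed to 4.43 to 14.3 TPM in A-C and 7.93 to 14.7 TPM in D-F, with 7.35 to 14.3 TPM in the controls and 4.43 to 14.7 TPM at 200 ng/ml. Among 7 leukocyte markers only CD14 and CD68 did, and their sum was 5.34 to 12.5 TPM in the controls and 18.6 to 40.6 TPM at 200 ng/ml, while CD3E and TYROBP were listed at 0 in every sample. CD68, a lysosomal protein gene, carried that rise and was 1.77 higher on the log2 scale (SE 0.14, adjusted p = 4.33e-05, edgeR). Among 6 endothelial markers only CDH5 exceeded 1 TPM, in A-C alone, and KDR and CLDN5 were listed at 0 throughout. Whether these markers have a part in the results below was not tested, and in bulk RNA fewer cells of a type and less RNA per cell cannot be told apart.

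Both line sets carried high epithelial cadherin levels together with high fibronectin. CDH3 and CDH1 were the 2 highest of the 10 genes in both sets, followed by FN1. In A-C, the median TPM over 6 samples was 178 for CDH3, 145 for CDH1 and 90.6 for FN1, and in D-F it was 251, 180 and 132. By mean TPM, these genes lay between percentiles 92.9 and 97.9 of the 19944 genes tested. The ranges of CDH3 and CDH1 overlapped in both sets, and those of CDH1 and FN1 overlapped in D-F but not in A-C. SNAI2 and then CDH2 came next by mean TPM in both sets. The order of the genes below them differed between the sets, with overlapping ranges for most neighbours, as the plot of TPM by sample shows.

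**Figure D1:**
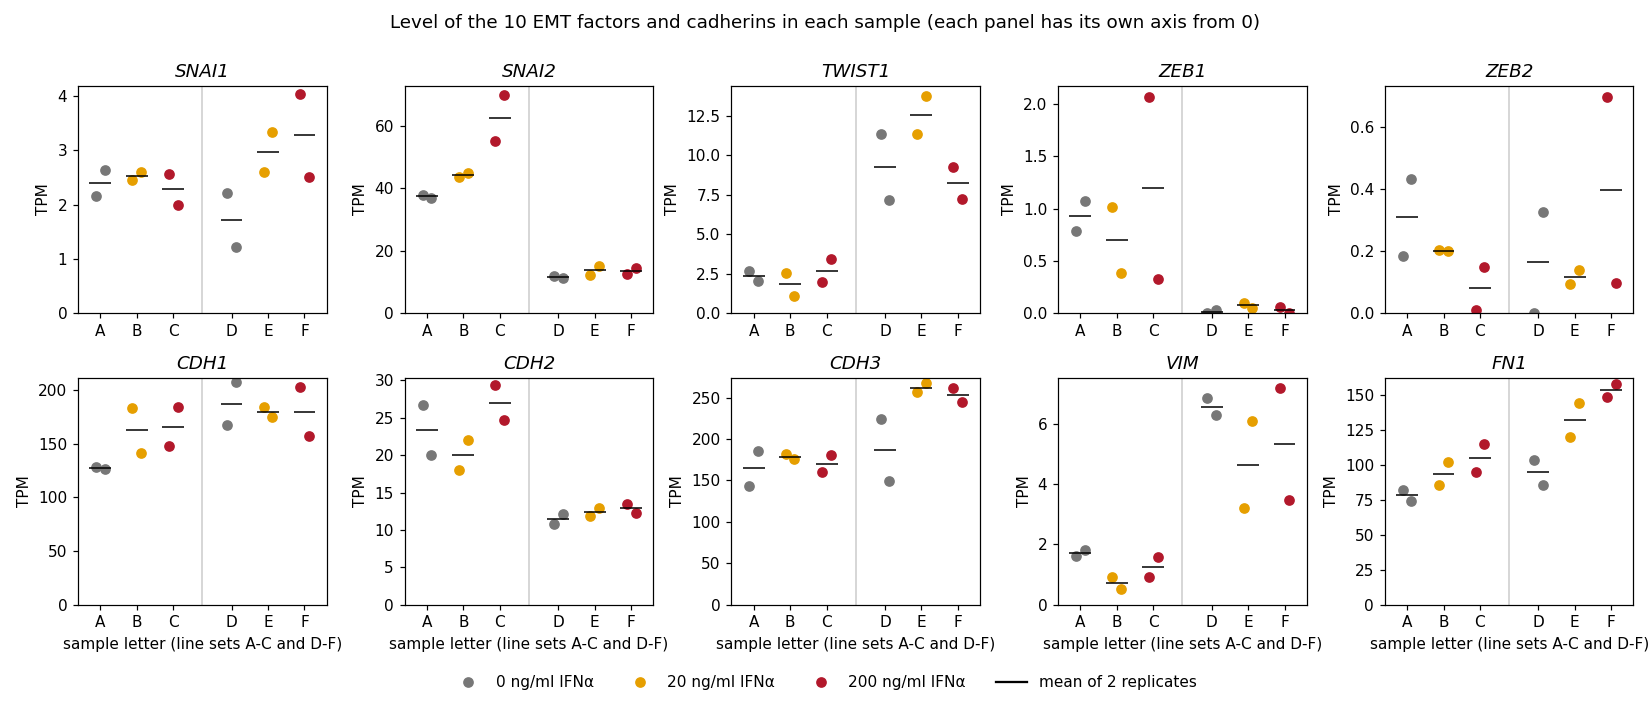
TPM of each of the 10 genes in each of the 12 samples (points, coloured by IFNα dose) with the mean of the 2 replicates of each letter (lines), each panel with its own linear axis from 0. SNAI2, CDH2 and ZEB1 were higher in every A-C sample than in any D-F sample, TWIST1 and VIM were lower, and SNAI2 and FN1 were above the controls of their set at both doses.

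In the untreated cells, 4 of 8 tested genes differed between D and A, all at least 2-fold and in opposite directions. SNAI2 and CDH2 were higher in A, and VIM and TWIST1 were higher in D. Over all 19944 genes tested, 46.4% passed the same test (adjusted p at most 0.05 over all genes) and 26.6% also differed at least 2-fold, so that a large part of the transcriptome differed between the sets. Each set held some of these genes at the higher level, SNAI2 and CDH2 in one and TWIST1 and VIM in the other. ZEB2 had 0 to 10 counts per sample and did not pass the filter on low counts. ZEB1 passed it only through its counts in A-C, which fixes in part the direction of its difference between the sets, so it is left out of these counts and its levels are given as a description.

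SNAI2, which encodes the E-box repressor Slug, had 37.9 and 36.8 TPM in A1 and A2, 43.7 and 45.1 in B1 and B2, and 55.3 and 69.9 in C1 and C2. In D1 and D2 it had 11.8 and 11.3 TPM, in E1 and E2 12.1 and 15.1, and in F1 and F2 12.4 and 14.3. Every A-C sample lay above every D-F sample. The log2 fold change of D against A was −1.82 (SE 0.15, adjusted p = 1.22e-05, edgeR quasi-likelihood test with Benjamini-Hochberg adjustment, as for all adjusted p below). In D-F, SNAI2 and CDH2 stood next to each other in the order of levels with overlapping ranges, whereas in A-C SNAI2 was 2.05 times CDH2 by their means and the ranges were apart.

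TWIST1, a basic helix-loop-helix factor, showed the opposite order. In A-C it had 2.64 and 2.02 TPM in A, 2.56 and 1.06 in B and 1.94 and 3.41 in C, and in D-F 11.4 and 7.15 in D, 11.4 and 13.8 in E and 9.29 and 7.24 in F. The ranges did not overlap, and D exceeded A by 1.52 on the log2 scale (SE 0.38, adjusted p = 0.00879). Without the second replicate of A the adjusted p was 0.0679. The ratio of SNAI2 to TWIST1 within a sample was 14.3 to 42.5 in A-C and 1.04 to 1.97 in D-F.

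ZEB1, a zinc finger E-box repressor, was near the limit of detection. It had 13 to 26 counts per sample in A-C (0.324 to 2.07 TPM) and 0 to 4 counts in D-F (0 to 0.0984 TPM). Every A-C sample had more ZEB1 counts than any D-F sample. The counts of 45 in A and 2 in D gave a ratio of library-scaled counts of 23.0 (exact 95% interval 6.02 to 196, counting error only). ZEB2, its paralog, had 40 counts over the 6 A-C samples and 20 over the 6 D-F samples, between 0 and 0.696 TPM, and the ranges of the sets overlapped.

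SNAI1, which encodes Snail, was low in both sets. It had 2.00 to 2.63 TPM in A-C with a median of 2.51 TPM, and 1.22 to 4.05 TPM in D-F with a median of 2.56 TPM, and the sets overlapped. The untreated difference did not pass the test (D against A, log2 fold change −0.62, SE 0.38, adjusted p = 0.212). SNAI2 exceeded SNAI1 by 14.0 to 35.0 times in A-C and by 3.06 to 9.24 times in D-F.

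CDH2, the N-cadherin gene, was expressed beside E-cadherin in every sample. It had 26.7 and 20.01 TPM in A, 18.0 and 22.0 in B and 29.4 and 24.7 in C, against 10.8 and 12.2 in D, 11.9 and 12.9 in E and 13.4 and 12.3 in F. The sets did not overlap, and D differed from A by −1.20 on the log2 scale (SE 0.22, adjusted p = 0.00159). CDH1 exceeded CDH2 by 4.80 to 10.2 times in A-C and by 12.7 to 17.1 times in D-F, so that no sample had more CDH2 than CDH1.

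CDH1 had 127.9 and 126.2 TPM in A, 183.3 and 141.8 in B and 147.7 and 184.1 in C. In D-F it had 167.3 and 207.3 in D, 183.9 and 175.0 in E and 202.5 and 156.9 in F. The sets overlapped, although both D samples were above both A samples. On counts the untreated difference missed the threshold (log2 fold change 0.17, SE 0.08, adjusted p = 0.0976), while on log2(TPM + 0.1) limma gave 0.55 with an adjusted p of 0.0323. CDH3 had 143.8 to 185.6 TPM in A-C and 149.0 to 267.8 in D-F, and the untreated difference did not pass (log2 fold change 0.16, SE 0.12, adjusted p = 0.321). These 2 genes lie side by side on chromosome 16 (CDH3 at 68636189-68722616 and CDH1 at 68737225-68835548, both on the plus strand, GRCh38).

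VIM, the most used filament marker of mesenchymal cells, was low in both sets. It had 1.62 and 1.81 TPM in A, 0.923 and 0.526 in B and 0.902 and 1.58 in C, which placed its mean at percentile 17.5 of tested genes. In D-F it had 6.85 and 6.28 TPM in D, 3.20 and 6.08 in E and 7.19 and 3.48 in F, with its mean at percentile 36.2. Every D-F sample was above every A-C sample, and D exceeded A by 1.83 on the log2 scale (SE 0.40, adjusted p = 0.00431). CDH1 was 69.8 to 270 times VIM in A-C and 24.4 to 57.5 times in D-F.

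FN1 had 82.2 and 74.4 TPM in A, 85.9 and 101.9 in B and 95.3 and 115.4 in C, and 103.8 and 86.0 in D, 120.2 and 144.7 in E and 148.6 and 158.3 in F. The untreated sets were close in this gene (D against A, log2 fold change 0.01, SE 0.10, 95% interval −0.18 to 0.21, adjusted p = 0.927). At 200 ng/ml F was above C by 0.33 (SE 0.10, adjusted p = 0.0219) and at 20 ng/ml E was above B by 0.34 (SE 0.10, adjusted p = 0.0209).

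Over all doses and leaving out ZEB1, 4 of the 8 tested genes had TPM ranges that did not overlap between the sets, where 38.9% of all tested genes did so. The contrasts among the treated samples use other samples than the untreated one. At 20 ng/ml 6 of 8 genes passed and 3 of them by 2-fold, against 45.5% and 26.2% of all genes, and at 200 ng/ml 6 of 8 passed and 4 by 2-fold, against 48.3% and 28.4%. SNAI2, CDH2, TWIST1 and VIM passed at each dose in the same direction as without IFNα. For CDH1 at 200 ng/ml the scaled counts and the TPM ran in opposite directions: F lay at −0.21 against C on the log2 scale of the counts (SE 0.08, adjusted p = 0.0474), while mean TPM was 180 in F and 166 in C with overlapping replicates.

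On the mean of both sets, FN1 and SNAI2 were higher at 200 ng/ml IFNα, each by less than 2-fold, and no other of the 9 tested genes passed. Tested within the sets, SNAI2 passed in A-C only and FN1 in D-F only, as given below. Of all genes tested, 9.55% passed this comparison and 2.14% also changed at least 2-fold. FN1 rose by 0.37 on the log2 scale (SE 0.07, adjusted p = 0.0119, 1.29-fold), with mean TPM going from 78.3 in A to 105 in C and from 94.9 in D to 153 in F. Its TPM was above both controls of the same set in all 4 treated samples at 200 ng/ml and in all 4 at 20 ng/ml. SNAI2 rose by 0.44 (SE 0.11, adjusted p = 0.0302, 1.36-fold), from a mean of 37.4 TPM in A to 62.6 in C and from 11.5 in D to 13.3 in F, again with all 8 treated samples above the controls of their set. Such separation in both sets was found for 8.55% of all genes at 200 ng/ml and 6.97% at 20 ng/ml. The FN1 call was lost without the second replicate of D (adjusted p = 0.0527). The SNAI2 call remained in 3 of the 12 fits that each left out 1 sample, and without A1, A2, B1, B2, C2, D1, D2, F1 or F2 the adjusted p was 0.0524 to 0.117.

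The other 7 tested genes did not pass at 200 ng/ml. CDH3 was at 0.26 on the log2 scale (SE 0.09, adjusted p = 0.101), SNAI1 at 0.40 (SE 0.27, adjusted p = 0.417) and VIM at −0.36 (SE 0.29, adjusted p = 0.511). CDH1 had 0.03 with a 95% interval of −0.08 to 0.14, which is the narrowest interval of the 9 genes, and CDH2 had 0.13 with an interval of −0.18 to 0.43. TWIST1 had 0.10 (interval −0.42 to 0.63), and ZEB1 had 0.46 with an interval of −1.06 to 1.97. An increase of the size seen in FN1 lay outside the intervals of CDH1 and VIM and inside those of CDH2, TWIST1, ZEB1, SNAI1 and CDH3, for which it was not excluded.

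At 20 ng/ml, 0 of the 9 genes passed in edgeR, and 0 in DESeq2, where 2 had an unadjusted p under 0.05 in edgeR and 3.93% of all genes passed. FN1 was at 0.25 on the log2 scale (SE 0.07, adjusted p = 0.102) and passed at 0.33 (adjusted p = 0.0257) without the first replicate of E. VIM had −0.69 (SE 0.30, adjusted p = 0.275), and its TPM was below both controls of the set in all 4 samples, as for 5.05% of all genes. Between 200 and 20 ng/ml, 0 of 9 passed in edgeR and 0 in DESeq2, with 0 at an unadjusted p under 0.05, and 0.135% of all genes did. SNAI2 was nearest, at 0.23 on the log2 scale (SE 0.11, adjusted p = 0.549).

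**Figure D2:**
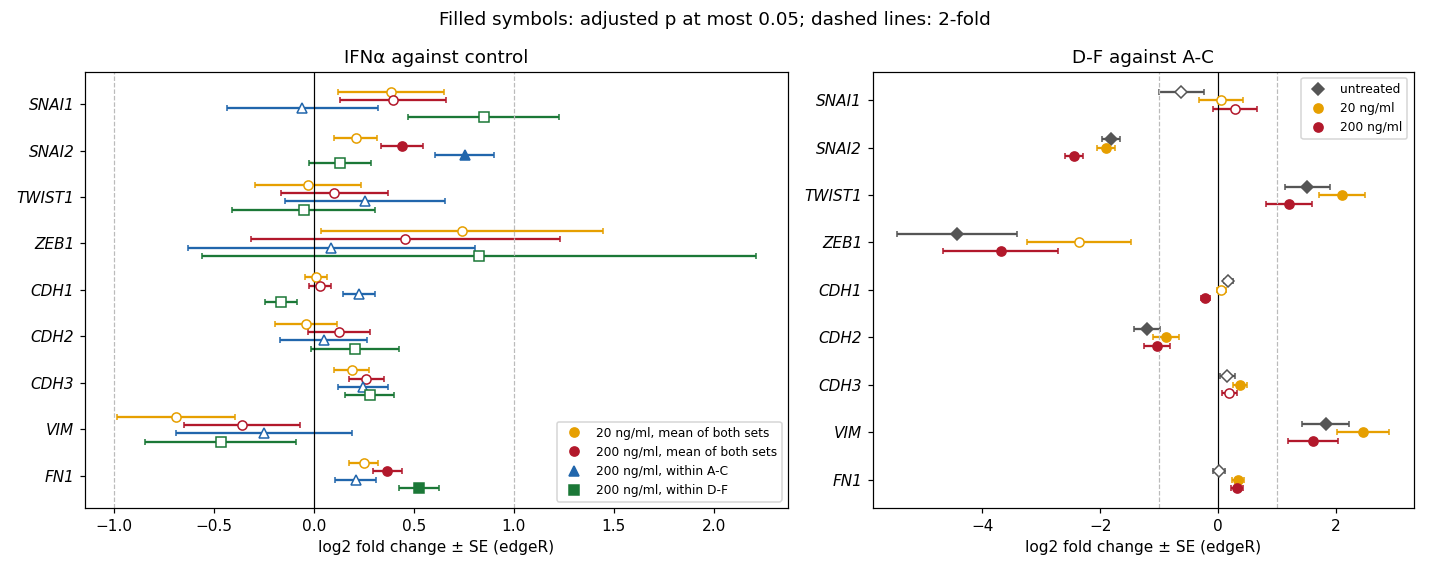
Log2 fold changes with their standard errors (edgeR) for the 9 tested genes, for IFNα against control on the left and for D-F against A-C at each dose on the right; filled symbols mark an adjusted p of at most 0.05 and dashed lines 2-fold. On the left FN1 and SNAI2 hold the 4 filled symbols and none reaches 2-fold, while on the right SNAI2, CDH2, TWIST1 and VIM keep their side at each dose; ZEB1 is drawn there although it passed the filter on low counts only through A-C.

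Within the sets, 1 gene passed in each at 200 ng/ml. In A-C this was SNAI2 (0.75 on the log2 scale, SE 0.15, adjusted p = 0.0179), where 7.18% of all genes passed, and in D-F it was FN1 (0.53, SE 0.10, adjusted p = 0.0151), where 5.84% did. SNAI2 in D-F had 0.13 and FN1 in A-C had 0.21 (SE 0.10, adjusted p = 0.265). The difference between the sets itself did not pass for any of the 9 genes in edgeR or DESeq2 (1.88% of all genes passed, and 2 of the 9 had an unadjusted p under 0.05), with −0.62 for SNAI2 (SE 0.21, adjusted p = 0.171) and 0.32 for FN1 (SE 0.14, adjusted p = 0.287). CDH1 had 0.23 in A-C and −0.16 in D-F, neither of which passed, and a difference of −0.39 (SE 0.11, adjusted p = 0.114). At 20 ng/ml 0 of 9 differences passed in edgeR and DESeq2, 1 had an unadjusted p under 0.05, and 0.371% of all genes passed. The SNAI2 call in A-C was lost without A1, A2 or C2 (adjusted p up to 0.105), and the FN1 call in D-F without D1, D2, F1 or F2 (adjusted p up to 0.106).

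The transcript estimates behind these gene levels differed in steadiness. SNAI1 has 1 transcript in the annotation, and SNAI2-201 took 98.2 to 100% of the SNAI2 TPM. CDH1 was divided among several transcripts, and the leading one differed between the 2 replicates of a letter in 5 of 6 letters. The protein coding CDH1-201 took 2.84 to 73.6% of the CDH1 TPM, the protein coding CDH1-212 took 0 to 64.5%, and the processed transcript CDH1-205 took 3.99 to 67.2%. CDH3-203, annotated as subject to nonsense mediated decay, led in 8 of 12 samples with 16.2 to 76.8% over all samples. CDH2-201 led in 10 samples, while another protein coding transcript led in the other two. VIM-201, the protein coding transcript that led in 2 samples, was listed at 0 in 10 of 12, and a form annotated as subject to nonsense mediated decay led in 6. None of the 27 FN1 transcripts reached 50% in any sample. Retained intron or processed transcripts took 60.3% of the ZEB1 TPM in A1, 55.1% in A2 and 71.2% in C1. The protein coding ZEB1-205 led in 5 samples and had 0 to 0.32 TPM. TWIST1-201, protein coding, led in 11 samples, while TWIST1-203, annotated as subject to nonsense mediated decay, took 59.7% in E2. Shares that move this much between replicates of a letter do not support a comparison of isoforms across doses. ZEB1, ZEB2 and VIM also overlap antisense genes by 1953, 3500 and 1727 bases. VIM-AS1 had 0.361 to 1.82 TPM in A-C and 0 to 0.492 in D-F, ZEB1-AS1 0.626 to 1.38 and 0.618 to 2.22, and ZEB2-AS1 was listed at 0 throughout. The libraries keep strand, but whether counting used it is not given in the sources used here, so reads of VIM or ZEB1 and their antisense partners may not be told apart.

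**Figure D3:**
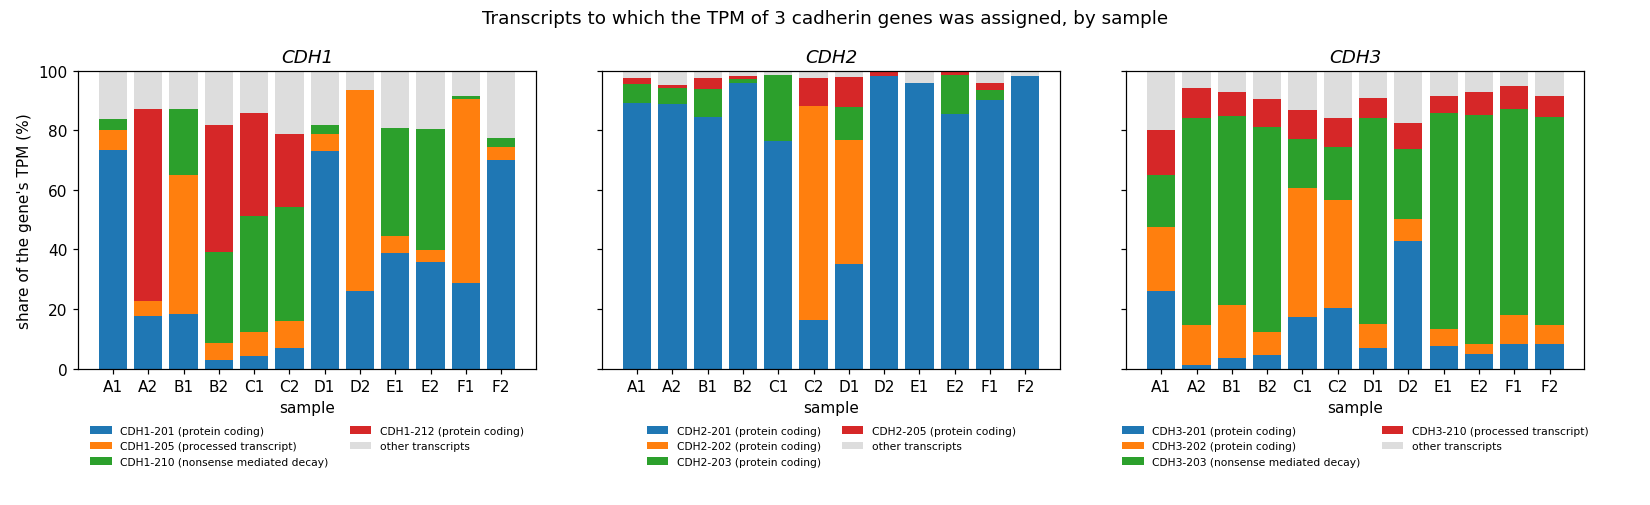
Share of the TPM of CDH1, CDH2 and CDH3 assigned to each named transcript in each of the 12 samples, in percent, with the remaining transcripts in grey. CDH1-212 takes 64.5% in A2 and 0.0078% in A1, and the orange CDH2 transcript takes 72.0% in C2 and 0.17% in C1, so the division shifts between replicates of a letter.

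The 3 genes whose log2 library-scaled counts followed each member best within both sets, by the lower of the 2 Pearson correlations over 6 samples each, are given as a description. For FN1 these were PNP (0.956), VEGFC (0.952) and TNFAIP3 (0.943), and for SNAI2 they were SLC35G2 (0.952), TTLL4 (0.943) and ASAP1 (0.929). PRKAG2 was closest to CDH1 (0.973), PTPRA to CDH3 (0.937), NOCT to CDH2 (0.896), MICA to SNAI1 (0.949), SYNC to VIM (0.919) and RASSF8 to ZEB1 (0.901). For TWIST1 the closest gene with a symbol was AMZ2P1 (0.821). With 6 samples and 19944 genes, high values of this kind arise readily, and samples share dose and depth.

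Other genes of adhesion and of the EMT program were counted from lists chosen by function. In the untreated comparison, epithelial regulators were more often higher in D: 9 of 16 were higher and 2 lower, with a median log2 fold change of 0.87 beside 0.01 for all genes, and 24.1% of all genes higher and 22.4% lower. ELF3, an epithelial ETS factor, was higher by 2.07 (SE 0.10, adjusted p = 4.26e-07) and CDS1, a lipid enzyme of epithelial cells, by 1.82 (SE 0.12), whereas EHF, another ETS factor, differed by −2.08 (SE 0.24) and TP63, the master factor of squamous epithelium, by −1.15 (SE 0.11). A list of catenins, desmosomal genes (desmosomal cadherins among them) and other adhesion genes such as EPCAM gave 9 of 15 higher and 1 lower, with a median of 0.52. Examples are CTNNB1, the β-catenin gene, by 1.45 (SE 0.09), and the desmosomal genes DSC2 by 1.90 (SE 0.08) and PKP1 by 1.53 (SE 0.19). At 200 ng/ml 1 of the 16 regulators and 2 of the 15 adhesion genes rose and none fell (edgeR), where 4.98% of all genes rose.

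Of 19 other cadherins, 8 were tested, and 2 were higher and 5 lower in D than in A. Of all genes 24.1% were higher and 22.4% lower. CDH5, CDH11, CDH12 and CDH18 were at or near 0 in A-C or in D-F. They passed the filter on low counts through the other set, which fixes in part the direction of their calls. As with ZEB1, their values describe levels. CDH10, also counted as lower in D, ran from −6.66 to −0.468 on the log2 scale over the alternative fits. It may likewise have passed the filter through A-C. CDH5, the endothelial cadherin, had 317 to 526 counts in the A-C samples and 0 to 2 in D-F. CDH11, a mesenchymal cadherin, had 27 to 61 counts in A-C and was at 0 in all 6 D-F samples, which makes A at least 14.4-fold higher than the floor of 3 counts per library in D. CDH18 showed the reverse, with 0 to 6 counts in A-C and 174 to 237 in D-F, and CDH12 had 0 to 0.574 TPM in A-C and 34.9 to 47.7 TPM in D-F. The fit over both sets put CDH18 higher at 200 ng/ml (1.44 on the log2 scale, adjusted p = 0.0475), but this rests on counts of 5 and 6 in C against 0 and 2 in A, and the call remained in 1 of the 12 fits that left out 1 sample.

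Mesenchymal and matrix genes did not move as a block between the sets: 10 of 24 tested were higher in D and 10 lower, with a median of −0.11. Of all genes 24.1% were higher and 22.4% lower. FAP, a fibroblast protease, was higher by 5.77 (SE 0.44), MMP2, a gelatinase, by 3.90 (SE 0.20) and TAGLN, an actin-binding protein, by 3.71 (SE 0.37). LOX, a collagen crosslinking enzyme, was lower (−4.53, SE 0.77), and SPARC, a matrix glycoprotein, had 178 to 203 TPM in A-C and was at 0 counts in all D-F samples, so that A was at least 1203-fold above the floor of D. SPARC passed the filter on low counts only through A-C, which fixes its direction. At 200 ng/ml 2 of the mesenchymal and matrix genes rose and 2 fell, where 4.98% of all genes rose and 4.57% fell. NT5E, an ectonucleotidase, rose by 1.05 (SE 0.05, adjusted p = 1.75e-06). Of 11 tested other EMT transcription factors, 5 were higher in D and 2 lower (TCF4 by 1.88, SE 0.23; FOSL1 by −1.43, SE 0.35), and at 200 ng/ml 1 fell.

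Genes of the partial EMT program of HNSCC tumours, a state in which epithelial tumour cells carry matrix genes, were the list with the largest share of members that rose at 200 ng/ml, apart from the interferon check genes and lists with 2 or fewer tested genes. The lists were chosen with earlier results of these data known, so this rank is a description. On the mean of both sets, 6 of 13 tested rose at 200 ng/ml and none fell, where 4.98% of all genes rose. The median log2 fold change was 0.26 beside −0.01 for all genes. At 20 ng/ml 7 of 13 rose, where 2.33% of all genes did. By the counts of genes that passed within each set, the rise lay more in D-F. At 200 ng/ml 7 of 13 rose within D-F (median 0.60, 3.44% of all genes) and 2 of 13 within A-C (median 0.10, 3.58% of all genes). The difference between the sets at 200 ng/ml passed for 2 of 13, both with the larger rise in D-F, where 1.88% of all genes passed. For the 20 ng/ml effect it passed for 0 of 13, where 0.371% of all genes passed. INHBA, the activin A subunit gene, was the only one of them changed at least 2-fold at 200 ng/ml (1.06, SE 0.13, adjusted p = 0.0011), with mean TPM of 44.5, 68.9 and 68.3 in A, B and C and 223, 410 and 515 in D, E and F. Between the untreated sets 6 of the 13 were higher in D and 4 lower, where 24.1% of all genes were higher and 22.4% lower. L1CAM, an adhesion molecule, was higher by 4.28 (SE 0.13), and PDPN, the podoplanin gene, was lower (−6.19, SE 0.76), with 21.8 to 55.0 TPM in A-C and 0 to 0.292 in D-F. At so low a level in D-F, PDPN passed the filter on low counts through A-C, which fixes in part its direction.

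Of 16 genes of the TGF-β pathway, which induces EMT in many epithelia, 7 were higher in D and 4 lower, with a median of 0.36. Of all genes 24.1% were higher and 22.4% lower. The receptor TGFBR2 was higher by 2.18 (SE 0.17) and the inhibitor SMAD7 by 2.30 (SE 0.19), while the matricellular genes CYR61 and CTGF were lower (−3.33, SE 0.11, and −2.61, SE 0.32). BMP7, also counted as lower, ran from −7.13 to −0.649 on the log2 scale over the alternative fits. It may have passed the filter on low counts through A-C, which would fix its direction in part. At 200 ng/ml 0 rose and 3 fell, where 4.57% of all genes fell, and at 20 ng/ml 1 fell, where 1.6% of all genes did. Of the 9 squamous markers, 2 were higher in D and 6 lower. KRT14, among the lower ones, passed the filter on low counts only through A-C, which fixes its direction. TP63 and PERP are counted both here and in a list above. At 200 ng/ml 3 of the 9 rose (4.98% of all genes), among them the keratin gene KRT6A by 1.21 (SE 0.11, adjusted p = 0.000153), while the value for KRT14 rests on counts of 0 in D against 3 and 2 in F.

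**Figure D4:**
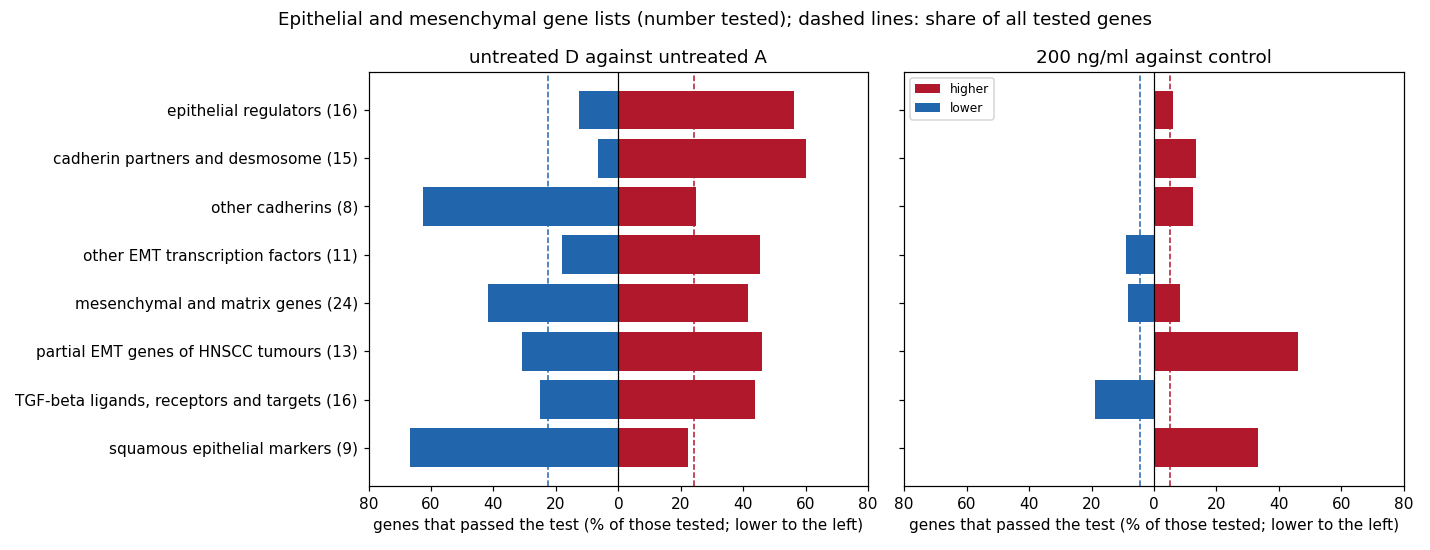
Share of the tested genes of each list that passed the test (adjusted p at most 0.05), higher to the right in red and lower to the left in blue, for untreated D against A and for 200 ng/ml IFNα against control, with the share of all 19944 tested genes as dashed lines. On the left epithelial regulators (9 of 16 higher) and cadherin partners (9 of 15) lean to D. Squamous epithelial markers (6 of 9 lower) and other cadherins (5 of 8 lower) lean to A. On the right the partial EMT genes hold the largest share (6 of 13 higher) among the lists drawn, which were chosen with earlier results of these data known. Genes near 0 in A-C or D-F, such as SPARC and CDH11, are counted although the filter passed them through the other set.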

How the data were processed

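RNA of 12 samples was sequenced on the HiseqXTen platform from strand-specific libraries depleted of ribosomal RNA. The authors deposited estimated counts, TPM and FPKM for each gene and transcript. The submitters' processing notes name Trimmomatic 0.36, HISAT2 2.1.0, StringTie 1.3.3b and GRCh38.p10, without settings. TPM as deposited was used for levels, and FPKM was not used. The estimated counts were whole numbers that gave a gene as the sum of its transcripts.

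Counts were analysed with edgeR 4.0.16 in R 4.3.3 (TMM, filterByExpr, quasi-likelihood test, Benjamini-Hochberg adjustment over 19944 genes) in one fit of the 6 letters. The count rule was an adjusted p of at most 0.05, with 2-fold changes counted separately. Standard errors are the log2 fold change divided by the root of F, and 95% intervals of a log2 fold change are the estimate ± the normal multiple of that error. With few samples these intervals run somewhat narrower than the test. CDH1 in untreated D against A had an interval of 0.02 to 0.33, while its unadjusted p was 0.0523 (edgeR). DESeq2 1.42.0 and limma 3.58.1 served as alternatives. The fits were tested on simulated data that held no difference between the line sets, so the test does not cover the set comparisons. Of 50 genes raised 2-fold at 200 ng/ml, edgeR recovered 34. False calls were 14 of 169 in edgeR and 36 of 193 in DESeq2. Low dose was read as 20 ng/ml from the design text. No source says that replicates were separate cultures, so p-values measure only the spread between these samples. Replicates of a letter differed by more than sampling noise (14.4 to 19.8 chi-square units for each degree of freedom), and 2 per letter limit precision.

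The genes and lists were chosen with earlier results of these data known. Named list genes are up to 3 per direction with the largest 2-fold changes that passed, of which only some are given, and 1 result is not reported here. Promoters come from RefSeq, and Python 3.11.15 was used for tables.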

Additional observations from a re-analysis of the deposited data

Results flagged for a closer look

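The 3 genes of the lists above that are given here had an effect of 200 ng/ml IFNα that differed between the line sets by the test of the difference itself (edgeR, D-F minus A-C on the log2 scale), where 1.88% of all genes passed. TP63, the squamous master factor, had a difference of −1.03 (SE 0.15, adjusted p = 0.0136), with mean TPM of 247 in A and 422 in C against 120 in D and 123 in F. TGFB2, a TGF-β ligand, had −1.29 (SE 0.20, adjusted p = 0.016), with 9.10 and 9.60 TPM in A and C against 14.5 and 7.58 in D and F. CD68 had 1.89 (SE 0.27, adjusted p = 0.0126), with 9.14 and 17.4 TPM in A and C against 5.87 and 37.8 in D and F. Leaving out 1 replicate of F moved TP63 (adjusted p up to 0.0600) and TGFB2 (up to 0.0756) past the threshold, and CD68 (0.0564) did so without F2. TGFB2 also missed it without A1 (0.0503) or D2 (0.0535). None of the 9 tested EMT factors and cadherins passed this test in edgeR or DESeq2, and 2 had an unadjusted p under 0.05.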

How the results depend on the processing

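The count of genes that differed between untreated D and A, which is 5 with ZEB1 included, was 4 to 6 under every alternative. The 2 genes that rose at 200 ng/ml became 1 without the filter on low counts and 0 at the threshold of an unadjusted p with 2-fold, and 0 to 2 when 1 sample was left out. The count of 0 at 20 ng/ml was 0 to 1 when 1 sample was left out. Within A-C the count of 1 became 0 when only the compared groups were fitted (SNAI2, adjusted p = 0.0922) and 0 at the 2-fold threshold, and was 0 to 1 with 1 sample left out. Within D-F it became 0 at the 2-fold threshold and was 0 to 1 with 1 sample left out. The 2-fold threshold removes FN1 and SNAI2 by its construction, and the causes of the other moves were not tested. With the replicate number as a block within the line sets, the counts were 5 in the untreated comparison, 2 at 200 ng/ml, 0 at 20 ng/ml and 1 within each set, as without it. Samples with the same number did not deviate together (correlations of −0.0453 to 0.0560 between letters), so the numbers were not taken to pair the samples. ZEB1 at 20 ng/ml turned from 0.74 to −0.0605 in limma on log2(TPM + 1). Among 44 values of single genes larger than their standard error, 811 alternatives kept the call and direction, 21 fell below the threshold, 3 rose past it and 1 turned its direction. The named genes of the other lists were recomputed in the same way, which was chosen after seeing the data, and 913 alternatives kept the call and 56 lost it. Depth limits ZEB1, ZEB2, SNAI1, TWIST1 and VIM most.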
